A study of Mus musculus with 8 samples.

Results

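The 9 genes described here are Cx3cr1, Csf1r, P2ry12, C1qa, C1qb, C1qc, Aif1, Trem2 and Tyrobp, all known for their expression in microglia. They were chosen by symbol, and each symbol is 1 row among the 21165 rows of a table of RNA sequencing counts. The RNA came from whole cortices of embryos at E18.5, 4 from a constitutive Nuak1 KO line and 4 WT. In this line the kinase gene Nuak1 is lost from every cell of the embryo, so that microglia, neurons and blood vessels share the genotype. The sample labels give 2 male and 2 female KO embryos, 1 male and 3 female WT embryos, and 3 litters, whereas the text on the design speaks of 4. The table names its columns KO or WT and R1 to R4 without embryo, litter or sex, so the libraries could be told apart by genotype and column number only. Each embryo gave 1 library.

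Microglia are the resident macrophages of the brain. They arise in the yolk sac and settle in the cortex well before birth, where they clear dying cells, contact growing axons and prune synapses with the help of complement. Their survival depends on signalling through CSF1R, they read fractalkine from neurons through CX3CR1 and ADP through P2RY12, they secrete the C1q chains that start the classical complement pathway, and they sense lipids through TREM2, which signals by way of the adaptor TYROBP.

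Nuak1 counts followed the labels. After scaling all libraries to the same depth, Nuak1 had 20.5, 13.7, 11.1 and 11.5 normalized counts in KO libraries R1 to R4, against 1377, 1445, 1118 and 877 in WT libraries R1 to R4. Library totals lay between 11027082 and 27014858 counts in KO and between 9643711 and 18940484 in WT. KO library R1 stood apart from all others by genes of fibroblasts of the meninges, the membranes that wrap the brain: the summed level of the 10 genes of that list was 10735 normalized counts in KO R1, against 491 to 679 in the other KO libraries and 377 to 531 in WT. The comparisons of the 9 genes are therefore given with and without this library. Of the markers of cortical cells, 9 of 10 passed the filter on low counts, among them Neurod6, with 5608 to 10463 normalized counts.

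The microglia genes were a small part of each library. The 9 genes together drew 414 to 1293 counts, which is 36.4 to 73.4 CPM, with the highest value in KO R1. In a bulk sample of this kind, fewer microglia and less of these RNAs in each microglial cell cannot be told apart.

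The 3 C1q genes sit side by side. On NCBIM37, the assembly behind mm9, C1qb lies at chr4:136436044-136442102, C1qc at chr4:136445719-136448980 and C1qa at chr4:136451832-136454718, all on the minus strand. The gaps measured 3616 bp between C1qb and C1qc and 2851 bp between C1qc and C1qa, with 0 annotated genes between them. The other 6 genes lie elsewhere: Cx3cr1 at chr9:119957811-119977400 (minus strand), P2ry12 at chr3:59020193-59066753 (minus), Aif1 at chr17:35307936-35313013 (minus), Trem2 at chr17:48485726-48493472 (plus) and Tyrobp at chr7:31198807-31202596 (plus). The position of Csf1r is given with its values. P2ry12 lies inside Med12l, which is read on the opposite strand, and Csf1r overlaps Hmgxb3 on the opposite strand. The strand setting used for counting was not stated, so reads of P2ry12 and Med12l, or of Csf1r and Hmgxb3, may not have been told apart. Med12l had 320 ± 19.5 normalized counts in KO and 339 ± 41.4 in WT, and Hmgxb3 had 1226 ± 99.7 and 1260 ± 45.2 (n = 4 per genotype, SD).

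Microglial genes are known for promoters that are bound by the transcription factor PU.1, whose core sequence is often GAGGAA, or TTCCTC on the other strand. RefSeq promoters on GRCm38.p6 were found for 6 of the 9 genes. The 6 letters, searched on both strands in the 250 bases before the start site and with no other motif searched, occurred in 4 of these 6 (C1qb, C1qc, Aif1 and Trem2, and not Cx3cr1 or P2ry12), against 23.3% of 32851 windows of the same length. A C1qb window with the letters close to its start, a C1qc window and the Cx3cr1 window without them are shown because C1qb and C1qc were among the genes with the widest spread between KO libraries, and Cx3cr1 was the one with the least. They are chr4:136886201-136886450, chr4:136893066-136893164 and chr9:120068297-120068546, each on the minus strand and written 5′ to 3′, with capitals for the searched letters. In C1qb they begin 30 bases before the start, in C1qc 193, and the C1qc window leaves out the 151 bases nearest the start, which another annotation counts as transcribed. A match of letters is a description and not a binding site.
C1qb: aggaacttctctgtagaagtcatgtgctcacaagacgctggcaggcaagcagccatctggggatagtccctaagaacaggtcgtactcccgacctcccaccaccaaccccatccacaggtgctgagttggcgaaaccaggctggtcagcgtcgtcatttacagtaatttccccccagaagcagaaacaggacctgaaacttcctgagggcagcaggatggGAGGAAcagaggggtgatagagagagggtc
C1qc: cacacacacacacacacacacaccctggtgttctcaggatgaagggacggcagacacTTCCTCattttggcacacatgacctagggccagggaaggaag
Cx3cr1: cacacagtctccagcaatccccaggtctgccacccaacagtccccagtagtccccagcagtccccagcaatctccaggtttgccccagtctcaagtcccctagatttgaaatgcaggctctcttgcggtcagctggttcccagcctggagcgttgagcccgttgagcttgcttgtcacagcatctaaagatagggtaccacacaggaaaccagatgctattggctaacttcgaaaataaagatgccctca

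The comparison of KO with WT asked how the loss of Nuak1 altered the cortical transcriptome, and here how it bore on microglia. None of the 9 microglia genes differed between genotypes beyond the spread between libraries. The edgeR quasi-likelihood test, adjusted by the Benjamini-Hochberg method over 12699 genes, called 0 of 9 at an adjusted p of 0.05, with adjusted p between 0.725 and 0.969, where 0.0709% of all tested genes were called. At the thresholds of the study, an unadjusted p of 0.05 and an absolute log2 fold change of 0.25, edgeR again called 0 of 9, against 4.25% of all genes, and the unadjusted p alone was under 0.05 for 0 of 9, against 7.69%. DESeq2 called 0 of 9 under each of these rules. Without KO R1, edgeR called 0 of 9 by all 3 rules, where the shares over all genes were 0.0465%, 3.54% and 5.63%. The levels of the genotypes overlapped for every one of the 9 genes, also without KO R1, whereas they did not overlap for 4.49% of all genes, or 6.74% without KO R1.

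Point estimates leaned to KO in all 9 genes, by 0.06 to 0.56 on the log2 scale. Their median was 0.40, where the median over all tested genes was -0.012 and 45.6% of all genes had a positive value. Without KO R1 the median was 0.15 and 6 of the 9 values were positive, while the median over all genes was -0.0003.

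**Figure D1:**
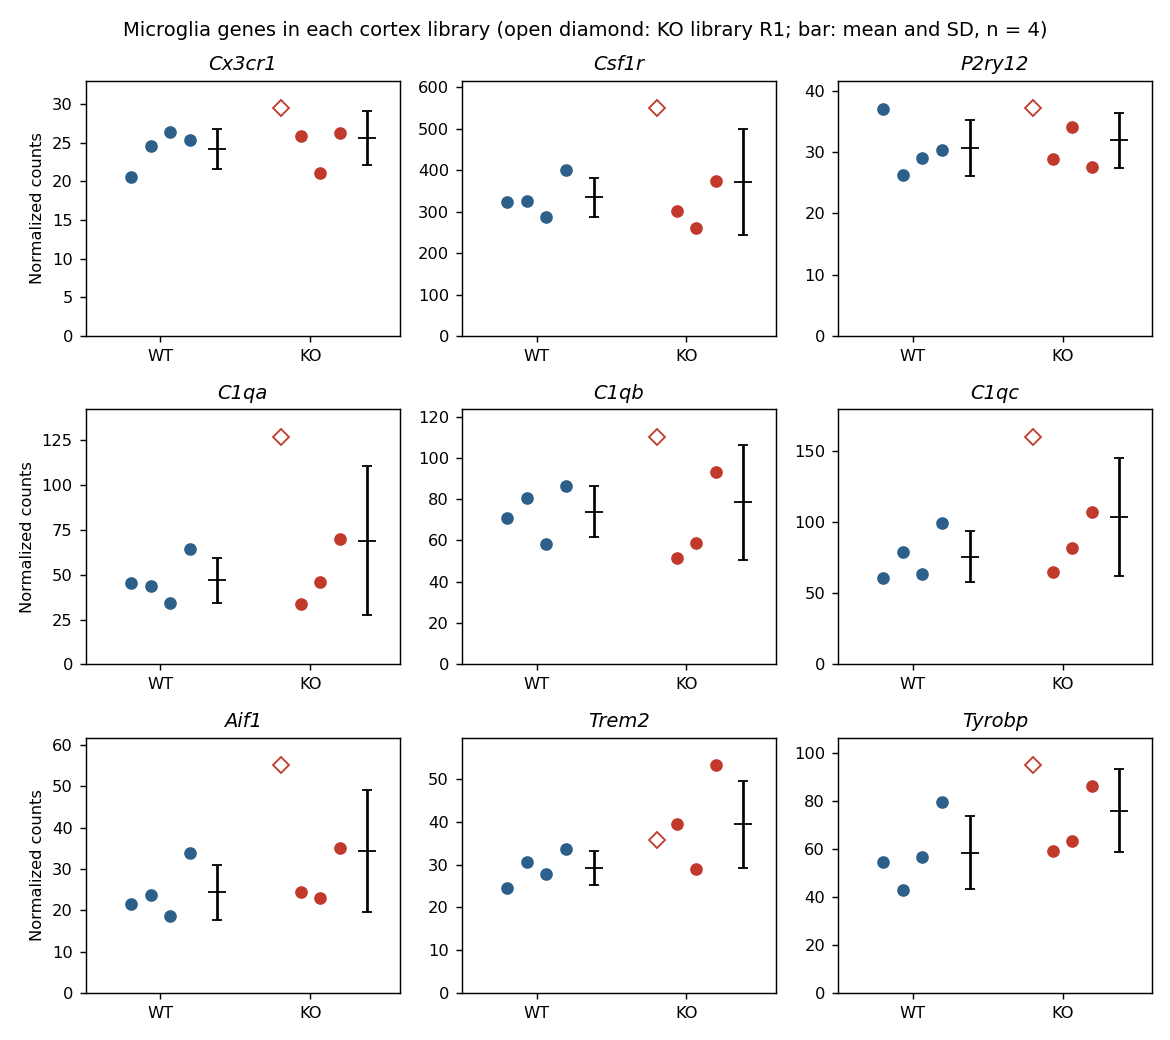
Normalized counts (y axes, linear, each from 0) of the 9 microglia genes in the 4 WT (blue) and 4 KO (red) cortex libraries, in the order R1 to R4 within each group; bars give mean and SD, n = 4, and the open diamond is KO library R1. KO R1 is the highest of the 8 libraries in 8 panels, and in the Trem2 panel KO R4 is, at 53.3.

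Among the surface receptors, Cx3cr1 and P2ry12 hardly varied. Cx3cr1, the fractalkine receptor, had 29.5, 25.8, 21.0 and 26.3 normalized counts in KO R1 to R4, and 20.6, 24.5, 26.4 and 25.3 in WT R1 to R4. KO R1 was the highest and WT R1 the lowest library, and the other 6 lay between 21.0 and 26.4. The means were 25.7 ± 3.48 in KO and 24.2 ± 2.56 in WT (n = 4 per genotype, SD), a log2 fold change of 0.08 with a 95% interval of -0.41 to 0.56 (SE 0.22, edgeR adjusted p = 0.968).

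P2ry12, the ADP receptor that guides microglial processes to sites of damage, had 37.2, 28.9, 34.04 and 27.7 normalized counts in KO and 37.0, 26.3, 29.1 and 30.4 in WT. The highest libraries of the genotypes, KO R1 and WT R1, were nearly equal. The log2 fold change was 0.06 (95% interval -0.41 to 0.52, edgeR adjusted p = 0.969). For Cx3cr1 the spread between libraries was 13.6% of the mean in KO and 10.6% in WT, below the 19.8% and 22.5% that counting error alone would give at 15 to 39 counts per library. P2ry12 showed the same order, with 13.9% and 14.8% against 18.0% and 20.1%.

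Csf1r, the receptor of CSF1 and IL34 that microglia need to survive, was the most counted of the 9 genes and made up 42.3 to 49.1% of their counts. It lies at chr18:61265226-61291803 on the plus strand of NCBIM37. It had 549.6, 301.0, 261.2 and 373.0 normalized counts in KO R1 to R4, and 323.7, 326.9, 286.7 and 400.3 in WT. KO R1 lay above every other library and KO R3 below every other, so the KO libraries bracketed the WT ones. The log2 fold change of 0.15 (95% interval -0.30 to 0.60, edgeR adjusted p = 0.905) became -0.09 without KO R1 (95% interval -0.41 to 0.24). Differences of more than 0.60 in either direction thus lay outside the interval for Csf1r in both fits.

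The C1q chains form one secreted complex, the recognition unit of the classical complement pathway, built from A, B and C chains in equal number. C1qa had 126.8, 33.4, 45.8 and 70.1 normalized counts in KO R1 to R4, and 45.2, 43.8, 34.4 and 64.2 in WT. KO R1 was 2.77 times the median of the other KO libraries, which overlapped the WT range. C1qa had the largest estimate among the 9 genes and the widest interval, with a log2 fold change of 0.56 (95% interval -0.24 to 1.37, SE 0.37, edgeR adjusted p = 0.781), and 0.15 without KO R1 (95% interval -0.48 to 0.79).

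C1qb had 110.2, 51.7, 58.8 and 93.1 normalized counts in KO and 70.9, 80.6, 58.1 and 86.1 in WT. KO R1 and R4 lay above all WT libraries and KO R2 below them. Its log2 fold change was 0.09 (95% interval -0.45 to 0.62, edgeR adjusted p = 0.957), and -0.09 without KO R1. C1qc had 160.1, 65.4, 81.7 and 107.2 normalized counts in KO and 60.6, 78.9, 63.4 and 99.7 in WT. KO R1 and R4 were the highest of the 8, and KO R2 and R3 fell within the WT range. Its log2 fold change was 0.46 (95% interval -0.12 to 1.05, edgeR adjusted p = 0.750), and 0.21 without KO R1.

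The balance among the chains does not depend on the depth or scaling of a library. C1qa made up 31.9% of the C1q counts in KO R1 (exact binomial 95% interval 26.8 to 37.4%) and 21.6 to 25.9% in the other 7 libraries. C1qb made up 27.7, 34.3, 31.6 and 34.4% in KO R1 to R4, and 40.1, 39.7, 37.3 and 34.5% in WT R1 to R4. The highest KO share of C1qb thus fell just short of the lowest WT share, at 34.41% in KO R4 and 34.46% in WT R4. The interval of each of these libraries held both values. The means were 32.0% ± 3.14 in KO and 37.9% ± 2.60 in WT (n = 4 per genotype, SD). The intervals of single libraries were wide, from 25.1 to 44.6% in KO R2 and from 26.8 to 42.7% in WT R4, and no test was run on these shares. Shares of other genes were computed as well, and how often a share would separate the genotypes by chance was not worked out. The separation for C1qb is therefore not read as a difference between the genotypes. C1qc took up 41.8% ± 2.14 in KO and 38.4% ± 2.84 in WT, with overlap. The intervals cover counting error only.

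**Figure D2:**
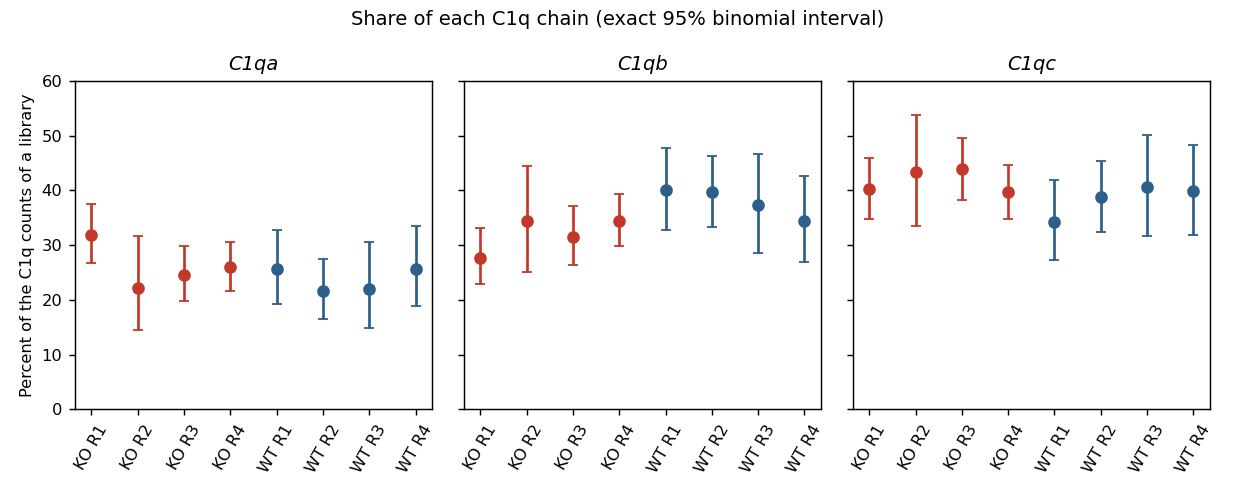
Share of each C1q chain (y axis, percent of all C1q counts of a library) in the 8 libraries, with exact binomial 95% intervals. C1qa reaches 31.9% in KO R1 against at most 25.9% elsewhere, and C1qb lies between 27.7 and 34.4% in KO and between 34.5 and 40.1% in WT. For C1qb the interval of KO R1 ends at 33.1%, just below the start of that of WT R2 at 33.3%, and the intervals of every other pair of KO and WT libraries overlap.

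Aif1, which encodes the calcium-binding protein IBA1 used to stain microglia, had 55.1, 24.3, 22.9 and 35.1 normalized counts in KO R1 to R4, and 21.6, 23.7, 18.497 and 33.8 in WT. KO R4 and WT R4 were close to each other and KO R1 stood above both. The log2 fold change was 0.50 (95% interval -0.21 to 1.20, edgeR adjusted p = 0.781), and 0.22 without KO R1.

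TREM2, a surface receptor for lipids and apolipoproteins, signals through TYROBP, also called DAP12. Trem2 was the exception to the pattern of KO R1: it had 35.9, 39.5, 29.1 and 53.3 normalized counts in KO R1 to R4, and 24.7, 30.7, 27.7 and 33.8 in WT. KO R4 was the highest library, 3 of the 4 KO libraries lay above all WT libraries, and KO R3 lay within the WT range. The means were 39.4 ± 10.2 and 29.2 ± 3.91 (n = 4 per genotype, SD), with a log2 fold change of 0.44 (95% interval -0.08 to 0.97, edgeR unadjusted p = 0.0911, adjusted p = 0.725). Leaving out KO R1 gave 0.49 (95% interval -0.08 to 1.07, edgeR unadjusted p = 0.0846, adjusted p = 0.878), and leaving out KO R4 gave 0.24.

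Tyrobp had 94.8, 59.3, 63.1 and 86.3 normalized counts in KO R1 to R4, and 54.5, 42.9, 56.8 and 79.4 in WT. WT R4 lay above KO R2 and R3, so the genotypes overlapped. The log2 fold change was 0.40 (95% interval -0.09 to 0.90, edgeR adjusted p = 0.743), and 0.31 without KO R1. Trem2 took 27.5% of the joint Trem2 and Tyrobp counts in KO R1, the lowest share, and up to 41.7% in WT R2, with means of 34.3% ± 5.83 in KO and 33.9% ± 5.33 in WT (n = 4 per genotype, SD).

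**Figure D3:**
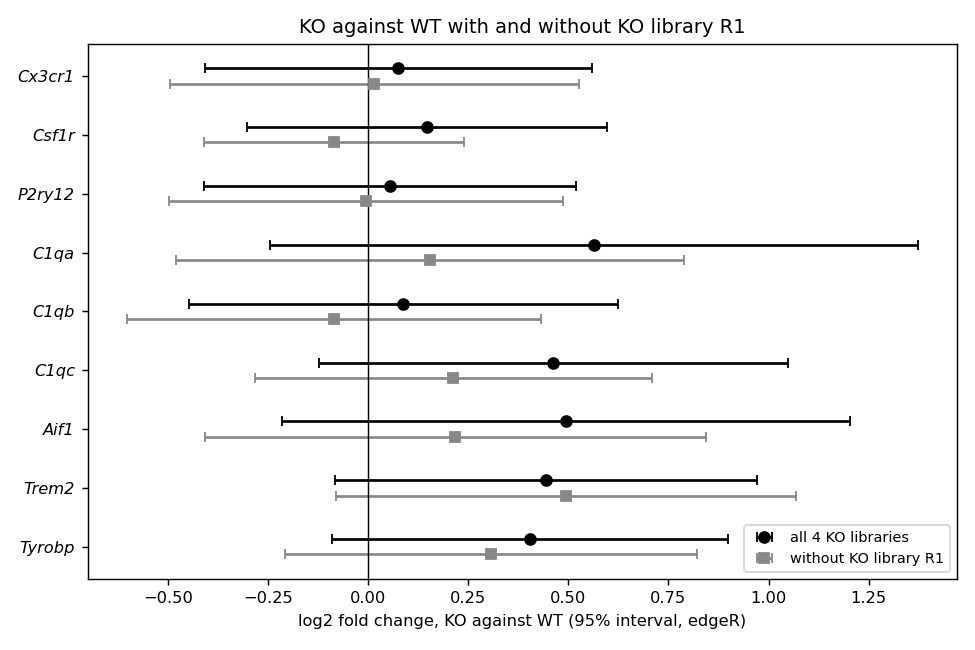
Log2 fold change of KO over WT (x axis) with edgeR 95% intervals for each of the 9 microglia genes, with all 8 libraries and without KO library R1. Every interval spans 0. The estimates of C1qa go from 0.56 to 0.15 and those of Csf1r from 0.15 to -0.09 when KO R1 is left out, while Trem2 goes from 0.44 to 0.49.

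Levels of different genes were compared per kilobase of the longest protein-coding transcript. In WT, Tyrobp was the most abundant at 104 ± 27.04 normalized counts per kilobase, followed by Csf1r (71.1 ± 10.1), C1qb (68.0 ± 11.3), C1qc (62.9 ± 14.9), C1qa (45.1 ± 12.02), Aif1 (27.9 ± 7.56), Trem2 (26.9 ± 3.59), P2ry12 (13.1 ± 1.94) and Cx3cr1 (6.49 ± 0.69; SD, n = 4). Csf1r and C1qb, C1qb and C1qc, and Aif1 and Trem2 differed by less than the larger of their SDs. Tyrobp ranked first, P2ry12 eighth and Cx3cr1 ninth in each of the 8 libraries by this length. By the same length C1qc was above C1qb in all 4 KO libraries and below it in 3 of the 4 WT libraries. The length of C1qc was 1203 bp by this transcript and 1931 bp with all annotated exons joined, and that of C1qb 1088 bp in both. The order of C1qb and C1qc thus depends on the length used, and was not tested. With the length of all annotated exons joined, Trem2 came to 5.91, Aif1 to 15.9 and C1qc to 39.2 per kilobase in WT. This puts Trem2 below P2ry12 (12.9) and Cx3cr1 (6.49), and C1qc below C1qa (45.1). Csf1r came to 63.9, below C1qb (68.0). The order below Tyrobp thus depends on the transcript model.

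The 9 genes were then read together across libraries. On a log2 scale, the mean deviation of the 9 genes from their own averages was 0.61 in KO R1, 0.28 in KO R4 and 0.17 in WT R4, and between -0.30 and -0.17 in the other 5 libraries. In KO R1 all 9 genes lay above their own averages, and in KO R4 and WT R4 8 of 9 did. KO R1 was the highest library for 8 of the 9 genes, whereas it was the highest for 16.8% of all tested genes. This was not particular to the microglia genes. Among tested genes, KO R1 was also highest for 12 of 12 of brain endothelium, 6 of 8 of pericytes and 7 of 7 of meningeal fibroblasts. It was highest for 0 of 9 of cortical neurons and progenitors. Relative to the median of the other KO libraries, the KO R1 level was 2.77-fold for C1qa, 2.26-fold for Aif1, 1.96-fold for C1qc, 1.87-fold for C1qb, 1.83-fold for Csf1r, 1.502-fold for Tyrobp, 1.29-fold for P2ry12, 1.14-fold for Cx3cr1 and 0.907-fold for Trem2. The pair of receptor genes Cx3cr1 and P2ry12 thus made up 5.56% of the counts of the 9 genes in KO R1 and 6.19 to 9.23% elsewhere.

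Csf1r followed the mean of the other 8 genes most closely, with a root mean square difference of 0.1297 on the log2 scale over the 8 libraries. C1qc (0.191), C1qb (0.192), Tyrobp (0.1996) and Aif1 (0.201) came next, and Cx3cr1 (0.265), Trem2 (0.330), P2ry12 (0.340) and C1qa (0.344) were the least alike. The SD of the mean profile of the 9 genes was 0.321, so Trem2, P2ry12 and C1qa differed from the mean of the others by more than that mean itself varied. Without KO R1 the SD fell to 0.219, Csf1r (0.136) and Aif1 (0.136) were the closest, and Cx3cr1 (0.228), C1qa (0.223), Trem2 (0.264) and P2ry12 (0.324) lay above the SD. Among 2268 other genes that varied as much, the closest to the mean profile of the 9 were Stat6 (0.080), Il10rb (0.107), Ctss (0.119), Trf (0.121), Erap1 (0.121), Col4a2 (0.122), Ly6c1 (0.122), Sema3b (0.125), B4galt1 (0.143) and Rnf213 (0.144), where the median difference was 0.463. This order rested on KO R1, since 0 of these 10 genes were among the 10 closest without it. Ctss encodes the lysosomal protease cathepsin S, Stat6 a transcription factor of cytokine signalling, Il10rb a chain of the IL-10 receptor, Col4a2 a chain of vascular basement membrane and Ly6c1 a surface protein of endothelium. Ctss had 313.9, 155.1, 166.5 and 225.3 normalized counts in KO R1 to R4, and 155.2, 181.4, 128.2 and 228.0 in WT. KO R1 was highest, and KO R4 and WT R4 were above the rest, as in the mean profile of the 9 genes by which Ctss was picked.

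Macrophages at the borders of the brain, in the meninges and around vessels, express several of the same genes. They are marked by Mrc1, Pf4, Lyve1, Cd163 and F13a1. The summed level of 10 such markers was 2054 normalized counts in KO R1, against 447 to 595 in the other KO libraries and 465 to 544 in WT. Mrc1, which encodes the mannose receptor CD206, had 438 normalized counts in KO R1 and 19.8 to 47.3 in the other 7 libraries. F13a1 had 260 against 1.32 to 10.1, Pf4 75.6 against 1.03 to 5.07, Lyve1 67.9 against 0 to 1.24, and Cd163 39.7 against 0 to 2.02. These 5 genes were named after their values were seen. Cd209f was at 0 in every library. In KO R1 9 of the 10 markers were thus above all other libraries. The part of border macrophages in the KO R1 levels of the 9 microglia genes was not tested.

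Most of these markers were below the filter on low counts, and only 3 of 10 were tested. Stab1, a scavenger receptor, had a log2 fold change of 0.51 (edgeR adjusted p = 0.738) and Dab2, an endocytic adaptor, one of 0.32 (adjusted p = 0.845). Neither passed an unadjusted p of 0.05, nor did Mrc1 (1.93, unadjusted p = 0.0614). Without KO R1 these values were 0.09, -0.11 and -0.23.

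**Figure D4:**
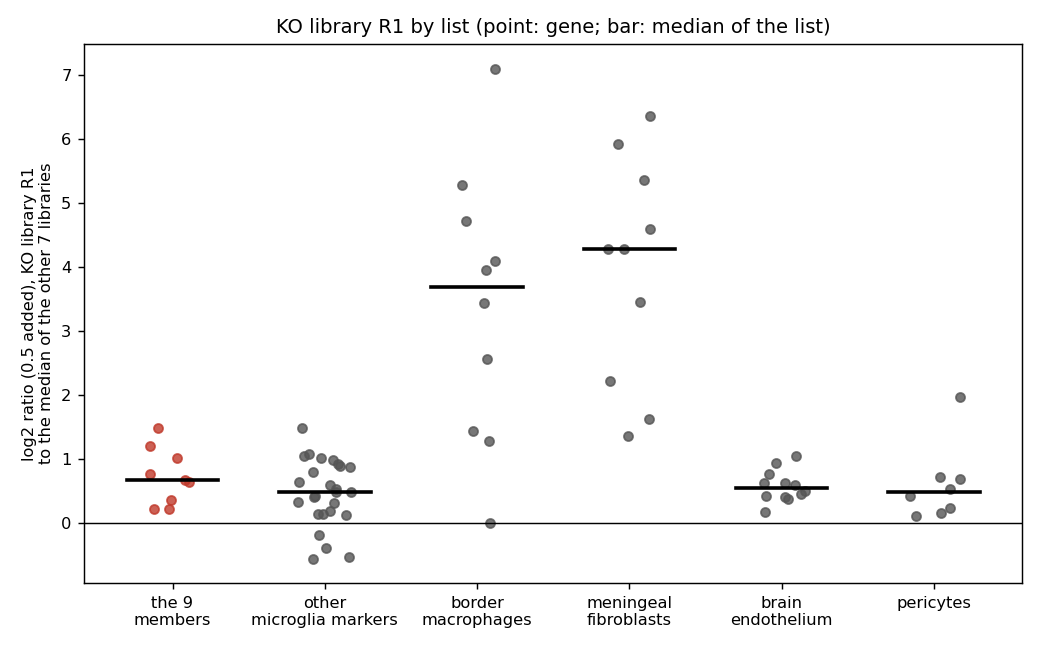
Log2 ratio of normalized counts in KO library R1 to the median of the other 7 libraries (y axis, 0.5 added to each value) for each gene (points) of 6 lists, with the median of each list (bars). The 9 microglia genes lie between 0.21 and 1.48 with a median of 0.67, other microglia markers have a median of 0.48, brain endothelium 0.55 and pericytes 0.47, and border macrophages and meningeal fibroblasts have medians of 3.69 and 4.28.

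Of the 26 other microglia markers, 22 lay above the median of the other 7 libraries in KO R1, and KO R1 was the highest library for 12 of the 23 that were tested. Fcrls and Olfml3, surface and secreted proteins typical of microglia, were highest in KO R1, with 183 normalized counts against 99.1 to 144 and 61.5 against 27.4 to 38.8. Siglech, a lectin used to mark microglia, had 23.1 in KO R1 and 9.12 to 26.4 in the others, and Tmem119 had 7.69 against 1.24 to 7.89. Gpr34, a lysophospholipid receptor, had 8.97 against 9.25 to 22.8, and Slc2a5, a fructose transporter, had 15.4 against 17.5 to 29.7, so both were lowest in KO R1. These 6 genes were named after their values were seen.

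In the comparison of the genotypes, 0 of the 23 tested markers passed either threshold. Their estimates were positive for 18 and negative for 5, the median being 0.15 on the log2 scale, and without KO R1 14 of 23 were positive, the median being 0.08. Lgmn, a lysosomal asparaginyl protease, had 976 ± 105 normalized counts in KO and 971 ± 112 in WT (n = 4 per genotype, SD), a log2 fold change of 0.01 (edgeR adjusted p = 0.989), and -0.01 without KO R1.

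The ligands of the receptors are made mostly by neurons and glia. None of the 5 tested passed either threshold, and their median log2 fold change was 0.10, or -0.10 without KO R1. Cx3cl1, the fractalkine gene, had a log2 fold change of -0.15 (edgeR adjusted p = 0.904), Csf1 one of 0.23 (adjusted p = 0.845) and Il34 one of 0.11 (adjusted p = 0.963). Without KO R1 these were -0.23, 0.02 and -0.21, so that of Il34 turned sign. Apoe and Clu encode apolipoproteins that TREM2 binds. Apoe had 1621, 867, 780 and 1298 normalized counts in KO R1 to R4, and 1014, 801, 539 and 1926 in WT. WT R4 was the highest and WT R3 the lowest library for Apoe, and its log2 fold change was 0.11 (edgeR adjusted p = 0.964), and -0.10 without KO R1. For Clu it was -0.02 (edgeR adjusted p = 0.989), and -0.04 without KO R1.

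Of 13 genes of the complement cascade and its regulators in the table, 9 were tested. Their median log2 fold change was 0.11, or -0.02 without KO R1, and 0 passed an adjusted p of 0.05. C3, the central component that C1q acts upstream of, had 16.6 ± 1.18 normalized counts in KO and 17.3 ± 4.75 in WT. Csmd1, a neuronal inhibitor of complement, had 829 ± 48.5 and 869 ± 144 (n = 4 per genotype, SD). Itgam and Itgb2, the chains of complement receptor CR3, had log2 fold changes of 0.31 and 0.21 (edgeR adjusted p = 0.778 and 0.922), and 0.22 and 0.17 without KO R1.

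Of the 14 genes of signalling below TREM2, CSF1R and P2RY12, 11 were tested, 5 had positive and 6 negative estimates, and 0 passed either threshold. Syk, the kinase recruited by TYROBP, had a log2 fold change of -0.20 (edgeR adjusted p = 0.845), Pik3cd, a catalytic subunit of PI3 kinase, one of -0.02 (adjusted p = 0.966) and Gnai2, the inhibitory G protein subunit that P2RY12 couples to, one of -0.0025 (adjusted p = 0.997). Without KO R1 these were -0.25, 0.03 and -0.06. Of 8 transcription factors of microglia, 5 were tested and 0 passed. Sfpi1, which encodes PU.1, had 24.3, 13.7, 12.4 and 12.1 normalized counts in KO R1 to R4, and 14.4, 7.01, 6.61 and 8.45 in WT. WT R1 lay above KO R2, R3 and R4, and the log2 fold change was 0.71 (edgeR unadjusted p = 0.0891, adjusted p = 0.723). Without KO R1 it was 0.45 (edgeR unadjusted p = 0.229, adjusted p = 0.945). Sall1, a transcription factor of mature microglia that other cells of the cortex also express, had a log2 fold change of -0.12 (edgeR adjusted p = 0.905), and -0.18 without KO R1.

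Vessels lie close to the microglia in this tissue, and their markers were read beside them. All 12 endothelial genes tested had positive estimates, against 45.6% of all tested genes, and their median was 0.22 on the log2 scale. Of the 12, 2 passed the thresholds of the study, against 4.25% of all genes. Cldn5, a tight junction protein, had 396 ± 45.4 normalized counts in KO and 305 ± 30.3 in WT (n = 4 per genotype, SD), a log2 fold change of 0.38 (edgeR unadjusted p = 0.0042, adjusted p = 0.440). Emcn, an endothelial sialomucin, had 178 ± 47.3 and 116 ± 14.4, a log2 fold change of 0.62 (edgeR unadjusted p = 0.0054, adjusted p = 0.467). Without KO R1 the values were 0.33 and 0.45, both still past the thresholds of the study, as were 3.54% of all genes. The median over the 12 genes was then 0.09, and 9 of the 12 were positive, against 49.9% of all genes. Of 8 pericyte genes, Higd1b passed them, with a log2 fold change of 0.43 (edgeR unadjusted p = 0.0280, adjusted p = 0.625), and not without KO R1 (0.29).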

How the data were processed

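Poly-A RNA of 8 cortices was sequenced as stranded, paired-end libraries. Before deposition the authors used Cutadapt 1.13 together with Prinseq 0.20.4 to remove adapters, bases of Phred quality below 20 and reads under 25 bp. TopHat2 2.0.13 and SAMtools 0.1.19 served for mapping on mm9 and HTSeq-count for counting, and the authors deposited whole-number counts per gene without normalization. The strand setting and the litter, sex and embryo of each column were not given in the sources used here. Of 21165 rows, 4641 held no count and 140 shared a symbol. There were 0 summary rows and 0 unused columns.

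Libraries were grouped by genotype. The quasi-likelihood test of edgeR 4.0.16 (R 4.3.3, filterByExpr, TMM, Benjamini-Hochberg) was fitted to the counts of all genes, as depth allows 14 to 553 counts for each microglia gene in a library. Normalized counts are brought to the average effective library size. The SE is the log2 fold change over the square root of F. DESeq2 1.42.0, the tool of the study, was an alternative, beside its size factors, other filters and each library left out. Likeness used log2 values with 0.5 added. Likeness without KO R1 was added after seeing the data. The 9 genes, the lists and the tests were chosen with earlier results of these data known. Genes named outside the 9 were those past an unadjusted p of 0.05 with or without KO R1, the 2 most counted of each list and the 10 most alike, with exceptions as stated. Some genes of the lists are not reported here. Spi1 was matched through its older symbol Sfpi1 after the table had been opened. P-values set the genotype difference against the spread between these libraries, and reach no further than these embryos. Embryos of the same litter were treated as independent, and litter and sex were not in the model.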

Additional observations from a re-analysis of the deposited data

Results flagged for a closer look

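Libraries that stood apart were looked for in 96 groups of 4 libraries: the 9 microglia genes, their shares and sum, the sums of the border macrophage and meningeal lists, and 31 other genes named with levels. A library was taken to stand apart where its gap to the nearest other, divided by the range of the group, exceeded Dixon's critical value. There were 10 such cases, and none was a level or share of the 9 microglia genes. Chance would give about 4.8 in groups chosen without sight of their values. Several of these genes were named after their values were seen, so the number of cases cannot be set against that figure. In 8 of them KO R1 was the highest of the KO libraries: the summed meningeal fibroblast list at 10735 normalized counts, the summed border macrophage list at 2054, Mrc1 at 438, F13a1 at 260, Pf4 at 75.6, Lyve1 at 67.9, Cd163 at 39.7 and Sfpi1, the gene of PU.1, at 24.3. The list sums hold the single border macrophage genes, so these cases are not independent. The other cases were Irf7, highest in WT R4 at 37.2 normalized counts against 14.5 to 15.4 in the other WT libraries, and the hemoglobin gene Hbb-b2, lowest in KO R4 at 1075 against 2329 to 2363 in the other KO libraries.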

How the results depend on the processing

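The log2 fold changes of the 9 microglia genes were recomputed under 13 settings, and 108 of these 117 values kept their direction. None passed an adjusted p of 0.05, with no adjusted p from DESeq2 for 8 of them. The number of the 9 microglia genes past the thresholds of the study, 0, ranged from 0 to 2 as libraries were left out. It was 2 without KO R2 (C1qa and C1qc), 1 without KO R3 (Trem2) and 2 without WT R4 (C1qc and Tyrobp). In the same fits 23, 19 and 17 genes of the other lists passed, against 14 with all libraries. The share over all tested genes was not computed for these fits, so these numbers are not read as a result about the 9 genes. The lowest adjusted p was 0.319, without WT R4. Their median log2 fold change, 0.40, lay between 0.15 (without KO R1) and 0.52 (without WT R4), and was 0.13 with DESeq2 without KO R1. The difference in the C1qa share of C1q counts, 2.46 percentage points, lay between 0.54 (without KO R1) and 3.77. Estimates near 0 turned sign: as libraries were left out, Csf1r ranged from -0.09 to 0.29, P2ry12 from -0.02 to 0.17 and C1qb from -0.09 to 0.23. Without KO R1 edgeR gave -0.0858 for Csf1r, -0.0055 for P2ry12 and -0.0857 for C1qb, and DESeq2, a setting added after seeing the data, gave -0.0887, -0.0075 and -0.0943. C1qb was also at -0.0147 without KO R4 and -0.0019 without WT R3, and P2ry12 at -0.0219 without WT R2. In the other lists, 14 genes passed the thresholds of the study, 25 when low counts were not filtered, 9 with DESeq2 without KO R1, and 11 to 23 as libraries were left out (23 without KO R2). DESeq2 called 1 gene of those lists at an adjusted p of 0.05, where edgeR called 0. The cause of these shifts was not tested, apart from the larger number of genes without a filter.

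No paired analysis was possible because litter, sex and embryo are not given for any column. DESeq2 gave an adjusted p for 5 of the 9 genes, the lowest 0.784. Cx3cr1, with 15 to 39 counts per library, and P2ry12 could not show differences much smaller than their intervals.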

Other observations

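Amoeboid and axon tract microglia of the perinatal brain are known for Spp1, Gpnmb and Igf1. Of the 10 genes of this list 8 were tested, 4 with positive and 4 with negative estimates. Their median log2 fold change was -0.05, and 0 passed the thresholds of the study. Without KO R1 4 of 9 were positive, the median was -0.02, and 2 passed those thresholds, where 3.54% of all genes did. Spp1, which encodes osteopontin, had 39.7, 79.1, 37.7 and 182 normalized counts in KO R1 to R4, and 55.5, 20.2, 15.9 and 59.1 in WT. KO R4 stood above the rest and the genotypes overlapped. Its log2 fold change was 1.23 (edgeR unadjusted p = 0.0521, adjusted p = 0.652), and 1.46 without KO R1 (unadjusted p = 0.0280, adjusted p = 0.832). Gpnmb, a lysosomal glycoprotein, had 25.6 normalized counts in KO R4 and 1.32 to 12.2 elsewhere. It passed the filter on low counts only without KO R1, with a log2 fold change of 1.996 (edgeR unadjusted p = 0.0227, adjusted p = 0.832). Igf1 had a log2 fold change of -0.31 (edgeR adjusted p = 0.892), and -0.44 without KO R1. Cd9, a tetraspanin that many cells express, was at 901 ± 66.0 in KO and 1021 ± 74.7 in WT (n = 4 per genotype, SD), a log2 fold change of -0.18 (edgeR unadjusted p = 0.0310, adjusted p = 0.630), and -0.22 without KO R1, both below the fold threshold of the study.

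Blood cells were read as a further source of macrophage genes. Of 12 leukocyte genes only Lyz2, the lysozyme of monocytes and macrophages, passed the filter on low counts. It had 43.6, 33.4, 26.0 and 34.4 normalized counts in KO R1 to R4, and 19.5, 26.3, 6.61 and 10.1 in WT. KO R3 and WT R2 overlapped by a small margin. The log2 fold change of Lyz2 was 1.03 (SE 0.36, edgeR unadjusted p = 0.0159, adjusted p = 0.556), and 0.90 without KO R1 (unadjusted p = 0.0404), so it passed the thresholds of the study in both fits and the adjusted p of 0.05 in neither. Among red cell genes, Hba-a1 had 2123, 3637, 321 and 164 normalized counts in KO R1 to R4 and 215 to 349 in WT, while Hbb-b2 had 1075 to 2363 in KO and 993 to 2483 in WT. Of 14 genes of cytokines and the interferon response, 4 were tested, 0 passed either threshold, and their median log2 fold change was 0.37, or -0.04 without KO R1. The interferon-induced genes Isg15 and Irf7, named after their values were seen, were highest in KO R1 (71.7 and 65.3 normalized counts), with WT R4 second (35.5 and 37.2).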
